A study of Mus musculus with 12 samples.

Results

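The comparison set the 6 libraries of mouse intestinal organoids treated with a primary bile acid, cholic acid (CA) or chenodeoxycholic acid (CDCA), against the 3 libraries treated with the solvent dimethyl sulfoxide (DMSO). These are 9 of the 12 libraries of the series, chosen by their treatment label. The other 3 libraries were treated with the secondary acid deoxycholic acid (DCA). The organoids are epithelial cultures grown from intestinal stem cells, labelled as wild-type (WT) and as coming from the duodenum, the first segment of the small intestine, and all groups were kept in a commercial growth medium to which antibiotics were added. They were cultured for 2 days before treatment. The labelled dose of every acid is 50 mmol/L, whose unit is in doubt because it would be unusually strong, and the labels disagree on the exposure, with 2 days in one place against 96 hours elsewhere. No mouse age, sex or number is given, and whether replicates are separate cultures or animals is not said. The p-values therefore reflect spread among these libraries alone, and that spread may be technical.

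Primary bile acids are made in the liver from cholesterol and are returned from the intestine to the liver. CA and CDCA differ in structure by a hydroxyl group that CA carries and CDCA lacks, and gut bacteria form DCA from CA by removing another hydroxyl group. In enterocytes, bile acids bind the nuclear receptor FXR (gene Nr1h4), which raises the genes of the intracellular bile acid carrier, of the exporter at the cell's blood side and of the hormone FGF15, which signals to the liver to make less bile acid.

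The deposited values are transcript abundances in TPM (a length-corrected share of all transcripts), so the sequencing depth of a library is unknown and no counting error can be given. Between 11464 and 11711 gene rows reached 1 TPM in a library. Markers of epithelial cells dominated: the 28 enterocyte markers summed to 3298 to 7566 TPM in the 9 libraries, and 12 mesenchymal, 12 immune and 12 endothelial, glial or neuronal markers to no more than 6.96, 4.98 and 7.24 TPM. The libraries did not form tight groups. On a scale over all tested genes from the average solvent profile (0) to the average DCA profile (1), each average taken without the library being placed, the CA libraries lay at 0.31 to 0.46, the CDCA libraries at 0.10, 0.17 and 0.52, and the DMSO libraries at 0.33, 0.02 and -0.03, so that CDCA replicate 3 and DMSO replicate 1 stood apart from the others of their groups. In bulk RNA, fewer cells of a type and less RNA per cell cannot be told apart.

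Pooling the 2 primary acids gave 141 genes that differed from solvent among 11952 tested (1.18%), of which 131 were higher (1.1%) and 10 lower (0.0837%). Values were compared as log2(TPM + 1) with limma, at a Benjamini-Hochberg adjusted p under 0.05, in a model with a mean for each of the 4 groups over all 12 libraries. Fold changes are on that scale, which understates the change of genes with few TPM. The same model gave 69 genes for CA alone (0.577%), 68 of them higher (0.569%), and 71 for CDCA alone (0.594%), 61 of them higher (0.51%). Because the pooled mean rests on 6 libraries, its standard error was 0.866 times that of a comparison of 3 and 3. The median pooled change over all tested genes was 0.02.

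Of the 141 genes, 25 were also called for both acids singly, 34 for CA and not for CDCA, and 37 for CDCA and not for CA. The remaining 45 genes were called in neither single comparison (0.377% of those tested), 40 of them higher and 5 lower. Conversely, 10 genes called for CA and 9 called for CDCA did not pass when the acids were pooled. The genes that pooling alone called had smaller changes, with a median absolute log2 change of 0.49 against 0.65 for the other called genes. Without overlap between the 6 treated and the 3 solvent libraries were 573 genes of all tested (4.79%) and 454 in the higher direction (3.8%). Genes ranked below by the size of their change were taken from those without overlap, so their lack of overlap is not a separate result. The ranked genes between the acids were chosen in the same way. The number of calls rested on the solvent libraries and on the model: it was 26 without DMSO replicate 2, 65 without CA replicate 3, 72 without CA replicate 1, 84 without DCA replicate 1, 86 without DCA replicate 2, and 42 when the DCA libraries were left out of the fit. The split into higher and lower also depended on scaling, with 112 higher and 32 lower after median-ratio scaling and 105 higher and 32 lower with mitochondrial and ribosomal RNA rows left out.

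**Figure D1:**
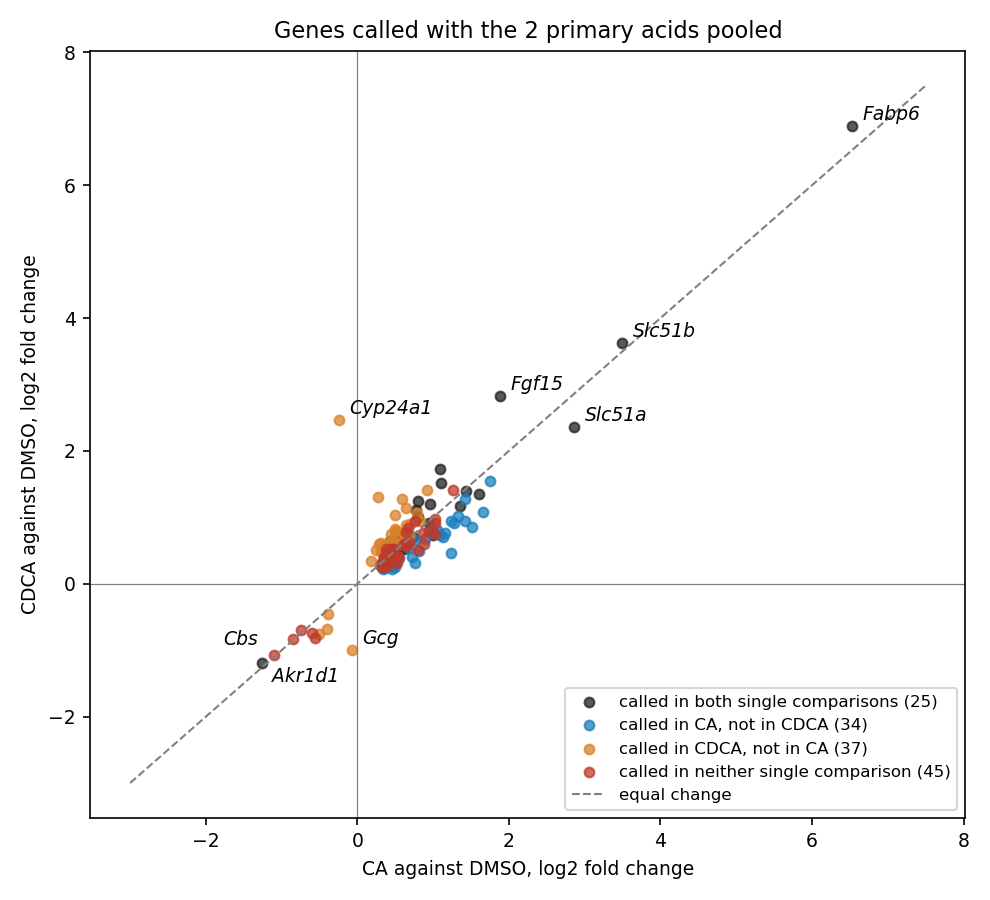
Log2 fold change on the log2(TPM + 1) scale against DMSO for CA (horizontal axis) and CDCA (vertical axis), each point 1 of the 141 genes called with the acids pooled, coloured by whether the single comparisons called it too; both axes share the 3 DMSO libraries. Fabp6 stands at 6.53 and 6.89, Cyp24a1 lies far from the line of equal change at -0.25 and 2.47, and the 45 genes called in neither single comparison lie close to that line.

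The genes with the largest shared rise were those of bile acid handling in enterocytes. Of 12 listed FXR targets 6 passed the filter on low values, 4 of these rose (among all tested genes, 1.1%) and none fell, with a median log2 change of 2.48 over the 6. That median depended on the filter. Without it 11 of the listed genes were tested, 4 rose and the median was 0.045. Fabp6, the intracellular bile acid binding protein of enterocytes, was at 1.29, 2.31 and 0.97 TPM in the DMSO libraries, at 306, 138 and 276 TPM with CA and at 164, 197 and 755 TPM with CDCA. Every treated library was far above every solvent library, and CDCA replicate 3 was far above the other treated ones. With DMSO only replicates 1 and 2 reached 1 TPM, so Fabp6 passed the filter through the treated libraries, where it was high. The pooled log2 change was 6.71 (95% interval 5.64 to 7.78, limma adjusted p = 0.000847).

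The upstream sequence of Fabp6 is shown because FXR is known to bind inverted repeats spaced by a single base (IR-1) in the promoter of this gene. It was read from the RefSeq promoter table of build GRCm38.p6, which is not the build of the deposited files (GRCm39), and spans the 250 bases before the annotated start at chr11:43601563-43601812, minus strand, 5′ to 3′. Capitals mark the 2 stretches that match IR-1, searched as AGGTCA followed by any base and by its reverse complement TGACCT, which reads the same on both strands, with at most 2 mismatches outside the free base.
Fabp6: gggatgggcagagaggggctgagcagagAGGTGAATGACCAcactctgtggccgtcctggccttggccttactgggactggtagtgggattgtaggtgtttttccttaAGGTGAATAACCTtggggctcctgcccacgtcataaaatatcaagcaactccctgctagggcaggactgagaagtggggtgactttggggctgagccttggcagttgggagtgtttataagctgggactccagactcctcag
The first stretch, AGGTGAATGACCA, begins 222 bases upstream of the start and the second, AGGTGAATAACCT, 142 bases upstream, each with 2 mismatches. Windows of this table run from 250 bases before to 50 bases after a start. A match was present in 1.14% of all 32851 promoters in the table, in 0.953% of the 12067 promoters of tested genes and in 3.05% of the 164 promoters of called genes, of which 117 of 141 had an entry. The called genes with a match were Fabp6, Pcx, Ddit3, Angptl6 and Btnl2, named here after their matches were seen. Of the other called FXR targets, Slc51a and Slc51b had no match in their windows and Fgf15 has no entry in the table. A match is a stretch of letters and not a binding measurement.

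Slc51b and Slc51a encode the subunits of the exporter that passes bile acids to the blood side. Slc51b was at 4.11, 3.13 and 2.06 TPM with DMSO, 49.1, 31.8 and 55.7 TPM with CA and 34.1, 35.7 and 93.2 TPM with CDCA. Slc51a was at 4.64, 2.09 and 1.71 TPM with DMSO, 31.0, 18.6 and 28.0 TPM with CA and 9.09, 15.0 and 38.8 TPM with CDCA. Neither gene overlapped between treated and solvent libraries, and in both CDCA replicate 3 was the highest treated library. The pooled log2 changes were 3.56 for Slc51b (95% interval 2.89 to 4.23, limma adjusted p = 0.000847) and 2.61 for Slc51a (1.76 to 3.46, adjusted p = 0.0122). The Slc51a call was lost without DMSO replicate 2 (adjusted p = 0.0699) and in the fit without the DCA libraries (adjusted p = 0.057).

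Fgf15, the intestinal hormone gene, was at 1.88, 1.93 and 1.72 TPM with DMSO, 9.61, 7.41 and 11.9 TPM with CA and 14.1, 14.1 and 34.7 TPM with CDCA. The solvent libraries lay close together and below every treated one, and the pooled log2 change was 2.35 (95% interval 1.84 to 2.86, limma adjusted p = 0.000847). The remaining tested targets of the list did not pass: Nr0b2, the repressor SHP, had a pooled log2 change of 0.33 (limma adjusted p = 0.461) with overlapping libraries, and the cell surface proteoglycan gene Sdc1 of -0.01. None of 10 tested bile acid receptors and cofactors was called. FXR itself (Nr1h4) was at 16.2 to 25.9 TPM with DMSO and 16.3 to 31.5 TPM with the acids. Slc10a2, which takes up bile acids from the ileal lumen, peaked at 0.822 TPM and Gpbar1, a bile acid receptor of the cell membrane, at 0.0751 TPM, so neither was tested.

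**Figure D2:**
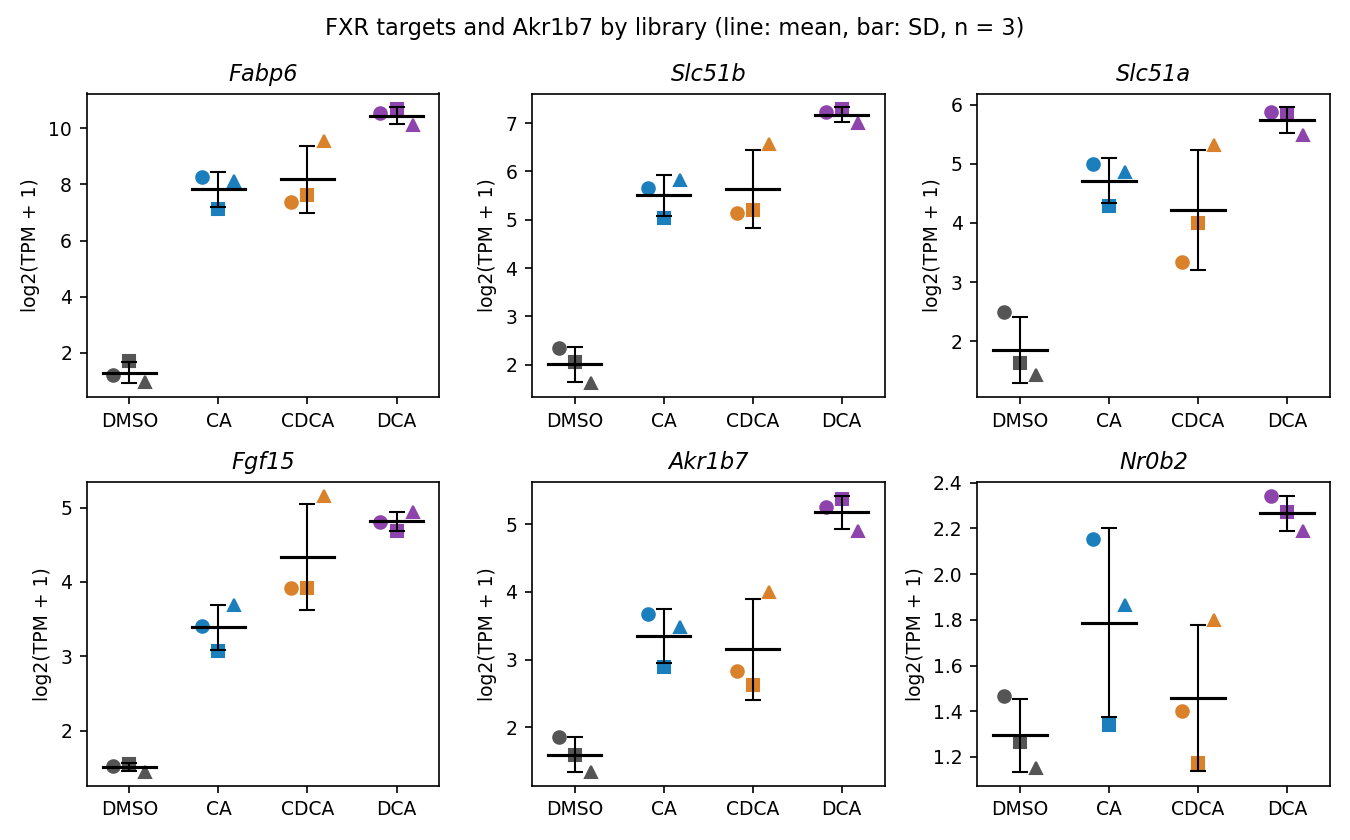
Log2(TPM + 1) per library (vertical axes) by treatment (horizontal axes) for 5 genes of bile acid handling that rose with the primary acids and for Nr0b2, with the mean as a line and the SD as a bar (n = 3) and the marker shape giving the replicate number. In the first 5 panels all 6 CA and CDCA libraries lie above all 3 DMSO libraries, and CDCA replicate 3 is the highest of the 6, while the Nr0b2 values overlap.

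Among 13 tested bile acid carriers and conjugation genes, 1 rose and 1 fell (among all tested genes, 1.1% and 0.0837%). Akr1b7, an aldo-keto reductase, was at 2.63, 2.01 and 1.55 TPM with DMSO, 11.7, 6.44 and 10.1 TPM with CA and 6.10, 5.15 and 15.0 TPM with CDCA. Akr1d1, the reductase that acts on the steroid ring in bile acid synthesis, was low throughout, at 2.46, 2.05 and 3.66 TPM with DMSO and 0.346 to 0.779 TPM in the 6 treated libraries. Neither overlapped, and the pooled log2 changes were 1.65 for Akr1b7 (limma adjusted p = 0.0152) and -1.23 for Akr1d1 (adjusted p = 0.00588). Among the CA, CDCA and DMSO libraries Akr1d1 reached the filter's 1 TPM only with DMSO, the group where it was high. Its p-value and lack of overlap are given with that limit. The Akr1d1 call depended on the pseudocount, since adding 0.1 TPM instead of 1 gave an adjusted p of 0.0555. The Akr1b7 call was lost without DMSO replicate 2 (adjusted p = 0.0915) or DMSO replicate 3 (adjusted p = 0.0562). Abcc2, an exporter of conjugated organic anions at the luminal side, was at 45.03 to 54.8 TPM with DMSO and 54.2 to 83.7 TPM with the acids, a pooled log2 change of 0.42 that did not pass (adjusted p = 0.125).

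Genes of carbon, lipid and xenobiotic metabolism were also among the largest rises. Pcx, the pyruvate carboxylase that feeds the citric acid cycle and glucose synthesis, was at 3.73, 3.02 and 3.54 TPM with DMSO, 15.3, 7.98 and 10.5 TPM with CA and 7.99, 10.9 and 13.8 TPM with CDCA. These groups did not overlap, with a pooled log2 change of 1.41 (95% interval 1.02 to 1.804, limma adjusted p = 0.00303). Pcx was the 1 gene called among 12 tested genes of gluconeogenesis and sugar handling (among all tested genes, 1.18%). Abhd3, a phospholipase, rose by 1.35 (adjusted p = 0.0143) and Adh6a, an alcohol dehydrogenase, by 1.18 (adjusted p = 0.0364) on the log2 scale, the latter from 16.2 to 31.1 TPM with DMSO to 35.3 to 78.2 TPM with the acids. The Pcx call held in all 22 alternatives, whereas Abhd3 lost its call without DMSO replicate 2 (adjusted p = 0.0983) and Adh6a without CA replicate 1 or 3, any DCA library, or DMSO replicate 2 or 3 (adjusted p 0.0583 to 0.172). In the fit without the DCA libraries Akr1b7, Abhd3 and Adh6a all lost their calls (adjusted p = 0.0556, 0.0584 and 0.111). Adh6a and Akr1b7 were the 2 called of 21 tested aldo-keto, alcohol and retinol oxidoreductases (among all tested genes, 1.18%).

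Of 32 tested genes of xenobiotic metabolism 3 rose (among all tested genes, 1.1%), all of them glutathione transferases, which join glutathione to reactive compounds. Gstm3 was at 504, 331 and 334 TPM with DMSO, 919, 764 and 836 TPM with CA and 592, 560 and 734 TPM with CDCA, a pooled log2 change of 0.92 (limma adjusted p = 0.00623) with no overlap. The other two were Gstm1, at 0.53 (adjusted p = 0.0211), and Gsta3, at 0.37 (adjusted p = 0.0467). Members of this family are close copies, so reads may be shared among them. None of the 3 passed without DMSO replicate 2 (adjusted p 0.0547 to 0.205), and 1 of them passed in the fit without the DCA libraries. The median of the 32 genes was 0.23, against 0.02 for all tested genes, and ran from 0.13 to 0.37 with single libraries left out. By acid the median was 0.47 for CA and 0.10 for CDCA. CA alone called 4 of the 32 genes and CDCA alone 0 (among all tested genes, 0.577% and 0.594%), so the pooled median rested mostly on CA.

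Further large rises were found in 3 genes of other kinds. Bcl2l15, a member of the BCL2 family, rose by 1.31 on the log2 scale (limma adjusted p = 0.00647), from 2.20 to 5.39 TPM with DMSO to 7.80 to 14.3 TPM with the acids. Of 16 tested apoptosis genes it was the 1 called (among all tested genes, 1.18%). Clec2h, a C-type lectin-like gene, rose by 1.18 (adjusted p = 0.0143), from 18.04 to 28.9 TPM to 33.3 to 79.9 TPM. Hnf4aos, an RNA antisense to the transcription factor gene Hnf4a, rose by 1.48 (adjusted p = 0.00521). Without DMSO replicate 2 the calls of Bcl2l15 (adjusted p = 0.0609) and Clec2h (adjusted p = 0.0958) were lost, that of Clec2h also without DMSO replicate 3 (adjusted p = 0.0554). The value of Hnf4aos is uncertain because the strand setting of the quantification is not given in the sources used here.

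Genes of the integrated stress response, in which a block of general translation raises a set of stress genes, formed a further group. Of 19 tested members 4 rose (among all tested genes, 1.1%) and none fell, and 9 were higher without overlap (among all tested genes, 3.8%). The median over the list was 0.19. Niban1, a stress-induced gene, was at 5.25, 3.22 and 2.39 TPM with DMSO, 8.54, 8.78 and 8.35 TPM with CA and 14.5, 13.4 and 13.5 TPM with CDCA. The libraries of each acid lay close together and above all solvent libraries, and those with CDCA were above those with CA. The pooled log2 change of Niban1 was 1.41 (95% interval 1.09 to 1.73, limma adjusted p = 0.000847).

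Ddit3, which encodes the stress transcription factor CHOP, was at 28.3, 25.9 and 26.2 TPM with DMSO, 38.6, 36.7 and 40.6 TPM with CA and 45.8, 46.1 and 47.6 TPM with CDCA. Vldlr, a lipoprotein receptor, was at 15.8, 15.8 and 15.5 TPM with DMSO, 21.5, 21.9 and 20.8 TPM with CA and 26.1, 24.3 and 24.8 TPM with CDCA. Trib3, a pseudokinase that acts on stress signalling, was at 25.4, 21.1 and 19.4 TPM with DMSO, 32.1, 32.3 and 30.5 TPM with CA and 42.2, 39.0 and 34.5 TPM with CDCA. In each of these genes the 3 groups did not overlap, with solvent lowest and CDCA highest. How many of all tested genes separate CDCA from CA in this way was not counted. The order of the acids in these genes and in Niban1 is therefore given as values only. The pooled log2 changes were 0.64 for Ddit3 (limma adjusted p = 0.00303), 0.54 for Vldlr (adjusted p = 0.00218) and 0.65 for Trib3 (adjusted p = 0.00647). CDCA exceeded CA by 0.26 in Ddit3, 0.22 in Vldlr, 0.27 in Trib3 and 0.63 in Niban1, differences that did not pass over all genes (adjusted p = 0.59, 0.567, 0.643 and 0.416). All 4 calls held under each alternative tried, except Trib3 without DMSO replicate 2 (adjusted p = 0.0606). None of 19 tested ER chaperone and unfolded protein response genes was called, with a median of 0.13.

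Several genes of this response are known to be bound through the C/EBP-ATF response element (CARE), here searched as TGATGNAA on both strands. It was present in 3.97% of all promoters in the RefSeq table and in 2.26% of those of tested genes. Of the 4 called members, Vldlr and Trib3 held it, and Niban1 and Ddit3 had no match in their windows. The sequence of Vldlr at chr19:27216770-27217019 (GRCm38.p6, plus strand, 250 bases before the second annotated start, 5′ to 3′) is shown with the match, 200 bases upstream and in the reverse orientation, in capitals.
Vldlr: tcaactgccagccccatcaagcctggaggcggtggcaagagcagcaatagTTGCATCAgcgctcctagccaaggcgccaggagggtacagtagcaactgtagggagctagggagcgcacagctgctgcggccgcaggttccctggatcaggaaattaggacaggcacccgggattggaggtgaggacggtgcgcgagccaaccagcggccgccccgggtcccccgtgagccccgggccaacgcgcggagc

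Of the gene lists, glycolysis and the response to low oxygen held the most pooled calls. In that response the factor HIF raises genes for glucose use, lactate export and blood vessel growth. All 27 listed genes were tested and 10 of them rose (percent called higher among all genes, 1.1%), none fell, and 16 were higher without overlap (among all genes, 3.8%). CA alone called 5 of the 27 and CDCA alone 3 (among all tested genes, 0.577% and 0.594%). The median pooled log2 change was 0.27, with 0.30 for CA and 0.24 for CDCA, so the changes were small in size. All 27 estimates lay above 0, and 26 after median-ratio scaling or with mitochondrial and ribosomal rows left out. The summed abundance of the 27 genes was 12603 to 14345 TPM with DMSO, 16530 to 17614 TPM with CA and 15057 to 16206 TPM with CDCA, without overlap.

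Car9, a carbonic anhydrase known as a marker of low oxygen, was at 170, 171 and 175 TPM with DMSO, 258, 267 and 267 TPM with CA and 247, 218 and 281 TPM with CDCA. Ankrd37, an ankyrin repeat gene raised by HIF, was at 77.6, 62.2 and 64.7 TPM with DMSO, 142, 129 and 137 TPM with CA and 99.4, 102 and 144 TPM with CDCA. Vegfa, the growth factor of blood vessels, was at 126, 177 and 201 TPM with DMSO, 276, 240 and 239 TPM with CA and 279, 270 and 295 TPM with CDCA. All 3 were higher in every treated library, and the pooled log2 changes were 0.57 for Car9 (limma adjusted p = 0.00255), 0.86 for Ankrd37 (adjusted p = 0.00404) and 0.69 for Vegfa (adjusted p = 0.0143).

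The enzymes of glycolysis moved less. Aldoa, the aldolase, was at 1794, 1593 and 1626 TPM with DMSO and between 1883 and 2151 TPM in the 6 treated libraries (pooled log2 change 0.28, limma adjusted p = 0.0122). Pgk1, phosphoglycerate kinase, rose by 0.29 (adjusted p = 0.018) and Gapdh, the dehydrogenase of glyceraldehyde phosphate, by 0.36 (adjusted p = 0.0364). Hk1, Ero1a, Bnip3 and Slc16a3 were the 4 of the list that neither single comparison called. They are named for that, with their values in view, as are Pgk1 and Gapdh. Slc16a3, the lactate exporter, was at 72.0, 64.0 and 79.6 TPM with DMSO, 95.3, 94.4 and 90.2 TPM with CA and 96.6, 95.8 and 89.2 TPM with CDCA. Its pooled log2 change was 0.38 (limma adjusted p = 0.0211), against 0.38 for CA (adjusted p = 0.0587) and 0.38 for CDCA (adjusted p = 0.0551), so the 2 acids gave nearly the same value and each missed the threshold alone. Ero1a, the oxidase that forms disulfide bonds in the ER, changed by 0.42, Bnip3, a mitophagy receptor, by 0.41 and Hk1, a hexokinase, by 0.46 (adjusted p = 0.0272, 0.0403 and 0.0364).

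**Figure D3:**
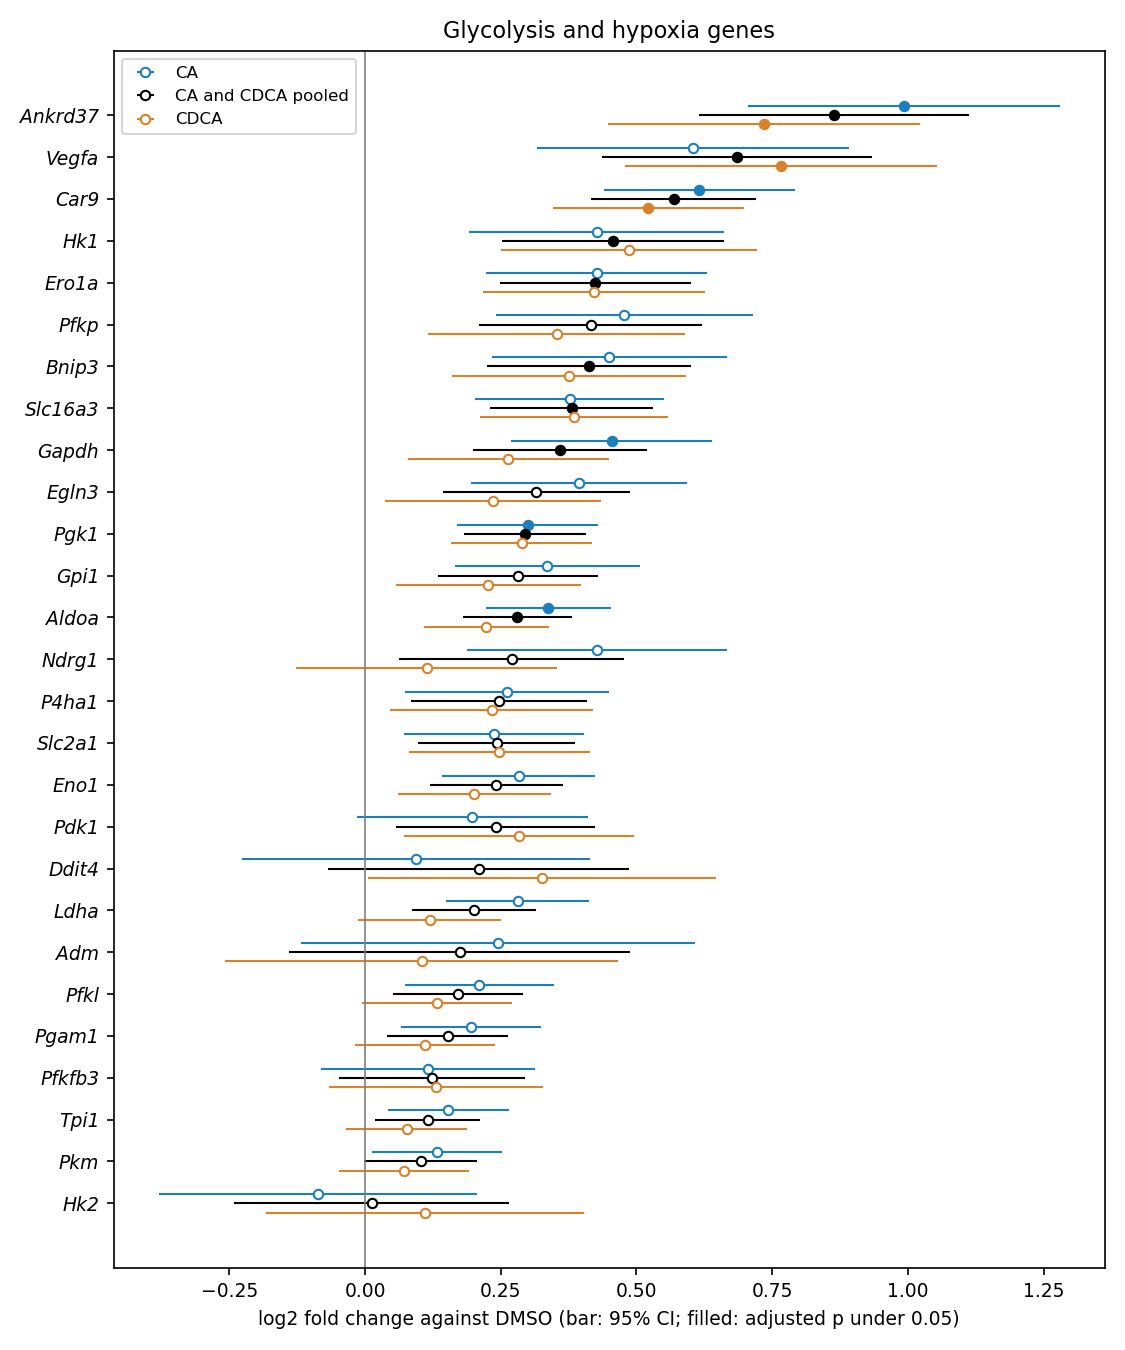
Log2 fold change on the log2(TPM + 1) scale against DMSO (horizontal axis) with its 95% interval as a bar for each of the 27 glycolysis and hypoxia genes (vertical axis), for CA, CDCA and both pooled; filled points have an adjusted p under 0.05. All 27 pooled estimates lie above 0 (26 after median-ratio scaling), 10 of them past the threshold, and Ankrd37 has the largest of the called changes at 0.86.

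Part of this group depended on the libraries and the model. Of the 4 genes that pooling alone called, Slc16a3 passed in 17, Ero1a in 12, Hk1 in 7 and Bnip3 in 5 of the 22 alternatives. Car9 and Ankrd37 passed under all 22 alternatives tried, while the count of 10 was 2 without DMSO replicate 2 and 2 in the fit without the DCA libraries, 5 without CA replicate 3, and 6 without DMSO replicate 3, without DCA replicate 2 or after median-ratio scaling. The mitochondrially encoded share of the total, which sets the scale of all other TPM values, was 13.6% to 14.4% with CA, 14.2% to 18.1% with CDCA and 14.6% to 20.1% with DMSO, highest in DMSO replicate 2, and with mitochondrial and ribosomal rows left out and the rest rescaled 7 of the list were called and the median was 0.21.

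Known HIF response elements hold the core letters ACGTG, searched here on both strands without mismatch. Of all promoters listed by RefSeq, 19.6% held it, as did 25.7% of those of tested genes and 26.2% of those of called genes. Counted by gene, with at least 1 promoter that held it, the shares were 21.8%, 29.8% and 32.5%. All 10 called members of the list had at least 1 promoter with the core, as did 9 of the 16 tested members that were not called and had an entry. The sequences of 4 called members (GRCm38.p6, the 250 bases before the start, 5′ to 3′, core in capitals) show how the core lies: singly 18 bases before the start in Car9, at 241 and 6 bases in Ankrd37, at 150 and 131 bases in Pgk1, where the second is on the opposite strand, and paired at 27 and 14 bases in Slc16a3. They lie at chr4:43506776-43507025 (plus strand), chr8:45999851-46000100 (minus strand), chrX:106186850-106187099 (plus strand) and chr11:120948817-120949066 (plus strand).
Car9: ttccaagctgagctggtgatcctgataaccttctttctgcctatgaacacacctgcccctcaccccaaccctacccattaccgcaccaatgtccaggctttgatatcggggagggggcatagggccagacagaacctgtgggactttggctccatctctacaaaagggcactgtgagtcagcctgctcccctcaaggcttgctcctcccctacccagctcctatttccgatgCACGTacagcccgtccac
Ankrd37: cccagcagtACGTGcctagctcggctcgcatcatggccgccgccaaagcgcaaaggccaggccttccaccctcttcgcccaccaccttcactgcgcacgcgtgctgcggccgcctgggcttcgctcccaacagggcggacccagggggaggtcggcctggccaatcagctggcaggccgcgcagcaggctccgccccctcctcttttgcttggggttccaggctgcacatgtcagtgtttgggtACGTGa
Pgk1: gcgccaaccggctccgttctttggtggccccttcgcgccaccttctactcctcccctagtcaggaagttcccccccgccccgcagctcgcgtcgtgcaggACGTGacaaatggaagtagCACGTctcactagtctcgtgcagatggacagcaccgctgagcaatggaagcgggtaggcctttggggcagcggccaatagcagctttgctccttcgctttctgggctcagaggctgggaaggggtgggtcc
Slc16a3: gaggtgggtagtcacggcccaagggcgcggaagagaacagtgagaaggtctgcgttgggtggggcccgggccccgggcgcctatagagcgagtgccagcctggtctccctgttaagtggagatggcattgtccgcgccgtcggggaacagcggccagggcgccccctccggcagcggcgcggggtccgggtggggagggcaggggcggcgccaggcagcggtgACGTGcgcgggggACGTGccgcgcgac

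The 45 genes that only the pooled comparison called were small and even changes. Of these, 3 had an absolute log2 change of at least 1, against 25 of all 141. Col26a1, a collagen gene, was the largest, at 1.71, 2.34 and 1.30 TPM with DMSO, 4.88, 7.24 and 4.82 TPM with CA and 7.79, 7.23 and 4.40 TPM with CDCA. No treated library overlapped a solvent library, which was a condition for naming it. Its log2 change was 1.33 pooled (95% interval 0.74 to 1.92, limma adjusted p = 0.0364), 1.25 for CA (adjusted p = 0.0971) and 1.41 for CDCA (adjusted p = 0.0754).

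Among the others were a transporter and several enzymes. Slc30a10, an exporter of manganese, was at 10.04, 5.37 and 6.80 TPM with DMSO, 15.7, 13.1 and 15.5 TPM with CA and 10.7, 11.3 and 18.9 TPM with CDCA, a pooled log2 change of 0.87 (limma adjusted p = 0.0414). Its lowest treated value of 10.7 TPM was just above its highest solvent value of 10.04 TPM. Pbld2 and Pbld1, neighbouring copies that may share reads, changed by 0.97 and 0.82 (adjusted p = 0.0378 and 0.043), Pbld2 from 17.5 to 22.7 TPM with DMSO to 31.0 to 64.0 TPM with the acids. Cyp4f40, a cytochrome P450, changed by 0.74 (adjusted p = 0.0431) and Uba7, the enzyme that activates the ubiquitin-like protein ISG15, by 0.85 (adjusted p = 0.0298).

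Themis3, Pstpip2, Pxdc1 and N4bp2l1 completed the 10 largest rises of this kind, with pooled log2 changes of 0.88, 0.65, 0.65 and 0.62 (limma adjusted p = 0.0416, 0.0463, 0.0466 and 0.0298). Between the acids the 45 genes differed by a median of 0.07 and at most 0.29 on the log2 scale, and 32 of them had an interval of the difference within 0.5 in either direction. That share was close to the one over all tested genes, 8644 of 11952, whose median difference was 0.10. The limit of 0.5 is about the size of the median change of the 45 genes, 0.49. Their evenness is in part a result of how they were chosen, since a gene that moved more with 1 acid is more likely to have been called for that acid.

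**Figure D4:**
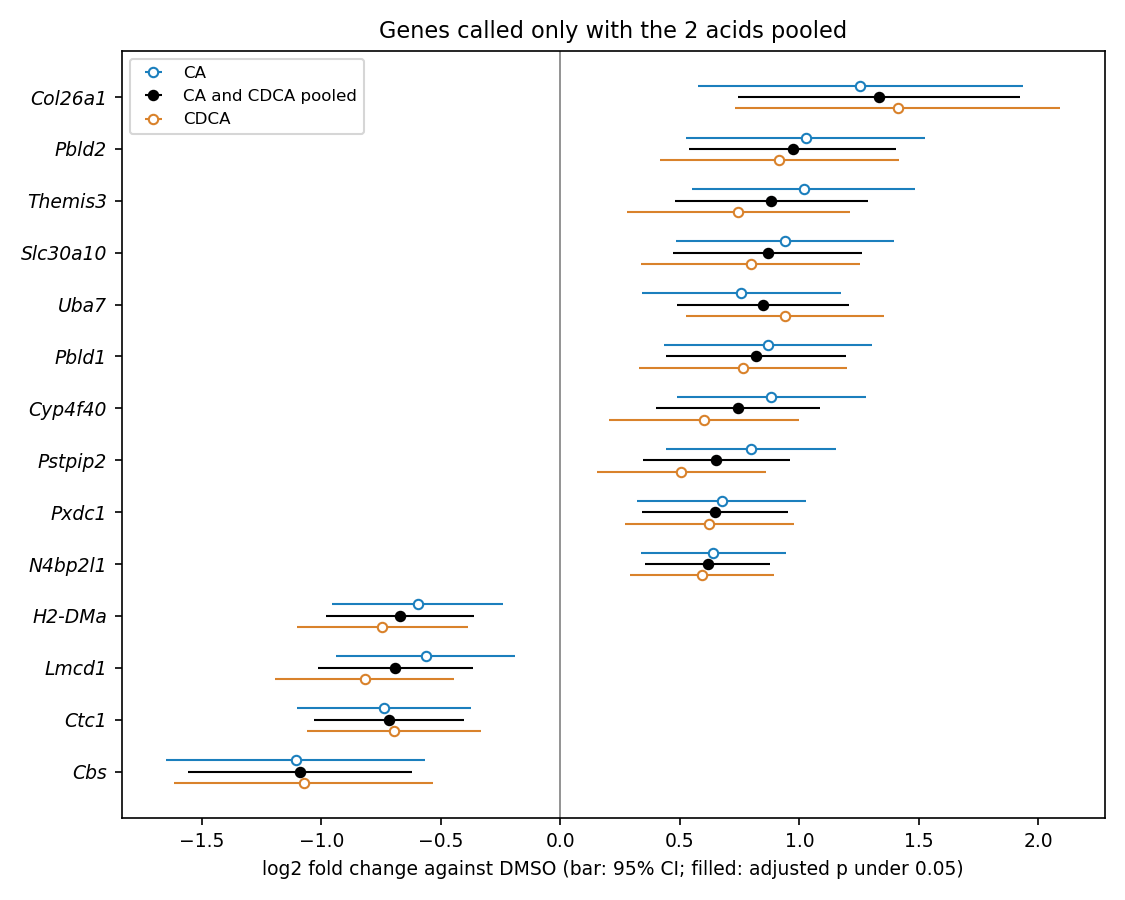
Log2 fold change on the log2(TPM + 1) scale against DMSO (horizontal axis) with its 95% interval as a bar for the named genes that only the pooled comparison called (vertical axis), for CA, CDCA and both pooled; filled points have an adjusted p under 0.05. The pooled bars are the shortest of each gene, from Col26a1 at 1.33 to Cbs at -1.09, and none of the intervals of CA or CDCA reaches 0.

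These calls lay close to the threshold. All 45 kept their sign in each of the 22 alternatives tried. In 43 of them the treated and solvent libraries did not overlap, so leaving libraries out could not turn the sign. The number past the pooled threshold was 2 without DMSO replicate 2, 4 without CA replicate 1, 4 without CA replicate 3, 2 in the fit without the DCA libraries and 4 without the filter, and it ranged from 2 to 29 when each of the 12 libraries was left out in turn. None of the 45 passed with each of the 9 libraries left out in turn.

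Fewer genes fell than rose, and 5 of the 10 that did were called by pooling alone. Cbs, the first enzyme that turns homocysteine into cysteine, was at 4.69, 7.32 and 4.31 TPM with DMSO, 2.03, 2.95 and 1.10 TPM with CA and 3.06, 1.78 and 1.39 TPM with CDCA, a pooled log2 change of -1.09 (95% interval -1.56 to -0.62, limma adjusted p = 0.0316). Ctc1, a component of the complex that protects telomeres, was at 22.6, 31.0 and 29.5 TPM with DMSO and 13.9 to 18.1 TPM with the acids, a change of -0.72 (adjusted p = 0.0346). Lmcd1, a LIM domain gene, changed by -0.69 and H2-DMa, which loads peptides on class II molecules, by -0.67 (adjusted p = 0.0457 and 0.043). Reads of H2-DMa may be shared with related genes of its locus. Each of the 4 was lower in all 6 treated libraries than in any solvent library, which was a condition for naming them.

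Genes that also passed for CDCA alone were Slit2, a guidance ligand, at 4.97 to 6.03 TPM with DMSO and 2.75 to 3.97 TPM with the acids (-0.63, limma adjusted p = 0.0157), the metalloproteinase inhibitor Timp3 (-0.55, adjusted p = 0.0294) and the laminin receptor Bcam (-0.42, adjusted p = 0.0272). Akr1d1, described above, and Gcg, described below, were the other named genes that fell. The mesenchymal markers, of which 1 of 12 passed the filter and 2 were at 0 in all 9 libraries, summed to 6.41 to 6.96 TPM with DMSO, 3.69 to 5.45 TPM with CA and 4.47 to 5.22 TPM with CDCA. Vim, the intermediate filament gene of mesenchymal cells, was lower in all treated libraries with a log2 change of -0.41 that did not pass (limma adjusted p = 0.26). The part of these cells in the lower genes was not tested. Of 8 lower genes named here (Gcg left aside), between 1 and 6 passed when any single library was left out, with 1 without DMSO replicate 3, 2 without DMSO replicate 2 and 3 without CA replicate 1 or CA replicate 3, and 3 passed in the fit without the DCA libraries.

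Between the acids themselves, 1 pair was compared, CDCA against CA at the same labelled dose and time, and 4 of 11952 genes differed (0.0335%). Cyp24a1, which inactivates vitamin D, was listed at 0 in the 3 CA libraries and in 2 DMSO libraries, at 0.668 TPM in the third DMSO library, and at 5.59, 5.05 and 6.08 TPM with CDCA. CDCA lay above CA by 2.71 on the log2(TPM + 1) scale (95% interval 2.31 to 3.12, limma adjusted p = 3.06e-05). Among the CA, CDCA and DMSO libraries it reached the filter's 1 TPM only with CDCA, the group where it was high. Its p-value is given with that limit. The pooled comparison nonetheless called Cyp24a1 with a log2 change of 1.11 (adjusted p = 0.00623), which is the mean of -0.25 for CA and 2.47 for CDCA and so not a change shared by both acids. The pooled call was lost without DMSO replicate 2 (adjusted p = 0.0574) and with 0.1 TPM added instead of 1 (adjusted p = 0.117). It was also lost in the fit without the DCA libraries where the acids share a mean (adjusted p = 0.698).

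Gcg, the gene of the gut hormone precursor proglucagon, was at 343, 276 and 317 TPM with DMSO, 337, 265 and 289 TPM with CA and 139, 173 and 156 TPM with CDCA. CA overlapped the solvent and CDCA lay below both, by -0.93 against CA (95% interval -1.16 to -0.70, limma adjusted p = 0.00425). Its pooled call (-0.53, adjusted p = 0.0157) was likewise the mean of -0.998 for CDCA and -0.07 for CA, and was lost without DMSO replicate 3 (adjusted p = 0.0519) and in both fits without the DCA libraries, with an adjusted p of 0.563 where the acids share a mean. Gip and Sst, hormone genes of other enteroendocrine cells, also lay lower with CDCA, at 172 to 209 and 156 to 174 TPM, than with CA, at 300 to 403 and 244 to 262 TPM, but the difference between acids did not pass (adjusted p = 0.0538 and 0.0608). Ghrl, a further gut hormone gene, went the other way from Gcg in the pooled comparison. Its pooled log2 change was 0.23 to 0.32 under the 22 alternatives and passed in none. Gip, Sst and Ghrl, like Krt20, Vim and Abcc2, are named after their values were seen.

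Lgals2, a galectin of the epithelium, was at 2035, 1994 and 2155 TPM with DMSO, 2179, 2080 and 2055 TPM with CA and 1618, 1524 and 1464 TPM with CDCA, a difference of -0.46 between the acids (95% interval -0.57 to -0.34, limma adjusted p = 0.00425). Zg16, a lectin of goblet cells, was at 86.9, 91.0 and 51.2 TPM with DMSO, 171, 131 and 137 TPM with CA and 37.3, 47.3 and 55.9 TPM with CDCA, a difference of -1.63 (95% interval -2.06 to -1.20, adjusted p = 0.00659). The Zg16 call was lost without CA replicate 1 (adjusted p = 0.0596), without the filter (adjusted p = 0.0536), after median-ratio scaling (adjusted p = 0.0764) and in the fit without the DCA libraries (adjusted p = 0.0542), and that of Lgals2 without trend and robust moderation (adjusted p = 0.102). In Zg16 the CA libraries lay above all solvent libraries, and the CDCA libraries overlapped the solvent at its lower end. The pooled change of Zg16 was 0.15 (adjusted p = 0.765), the mean of 0.96 for CA and -0.67 for CDCA.

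For most of the called genes the acids could be bounded but not shown to act alike. Over the 141 genes the absolute difference between CDCA and CA had a median of 0.17 on the log2 scale, and the median width to either side of its 95% interval was 0.26. In 82 of the 141 genes the interval lay within 0.5 in either direction, a lower share than over all tested genes (8644 of 11952). For Fabp6 it ran from -0.88 to 1.59 and for Slc51a from -1.48 to 0.48, so that differences of up to those sizes were not excluded. The acids differed in 34 genes without CDCA replicate 3 and in 7 without DMSO replicate 2.

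**Figure D5:**
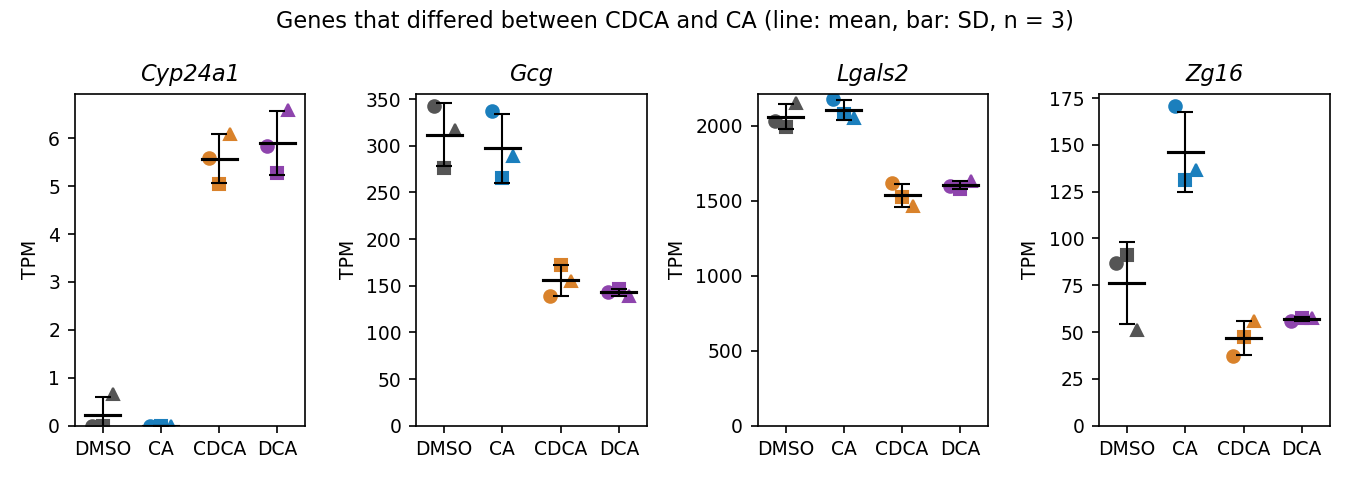
TPM per library (vertical axes, from 0) by treatment (horizontal axes) for the 4 genes that differed between CDCA and CA, with the mean as a line, the SD as a bar (n = 3) and the marker shape giving the replicate number. The CDCA and CA libraries do not overlap in any panel, and the CA libraries of Gcg and Lgals2 overlap the DMSO libraries.

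DCA, at the same labelled dose and time, was also set against the primary acids, a comparison that shares the 6 primary libraries with the one above. Between DCA and the mean of CA and CDCA, 3524 genes differed (29.5%). Fabp6 was at 1481, 1653 and 1100 TPM with DCA, above its highest primary library of 755 TPM, a log2 difference of 2.43 (95% interval 1.37 to 3.50, limma adjusted p = 0.00549). Car9 (420, 410 and 390 TPM, difference 0.67, adjusted p = 0.000196) and Pcx (28.0, 30.5 and 24.4 TPM, difference 1.28, adjusted p = 0.000663) were also higher, and Cbs lower (0.337, 0.279 and 0.405 TPM, difference -1.15, adjusted p = 0.0026), with no overlap. For Niban1, Trib3, Bcl2l15 and Uba7 no difference from DCA passed the threshold (adjusted p = 0.0764, 0.443, 0.594 and 0.608), with differences of 0.38, 0.10, -0.15 and -0.13.

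Of the lists of cell type markers, only the enteroendocrine list held a gene called with the primary acids, but several leaned one way. None of 27 tested enterocyte markers, 19 stem cell markers, 26 proliferation genes, 15 goblet, 15 Paneth or 10 tuft cell markers was called, with medians of 0.24, -0.25, -0.19, -0.04, -0.18 and -0.23. Above 0 were 25 of the 27 enterocyte markers, 1 of the 19 stem cell markers, 1 of the 26 proliferation genes, 6 of the goblet, 3 of the Paneth and 2 of the tuft cell markers. With single libraries left out the enterocyte median ran from 0.035 to 0.35, the stem cell median from -0.51 to -0.054, that of proliferation from -0.29 to -0.093, goblet from -0.11 to 0.0095, Paneth from -0.29 to 0.096 and tuft from -0.27 to -0.17, so that the sizes, and for goblet and Paneth cells the sign, depended on single libraries. The Paneth median was above 0 without DMSO replicate 3, and the goblet median without CDCA replicate 2 or DMSO replicate 1. The enterocyte median was lowest without DMSO replicate 2 and the stem cell median nearest 0 without DMSO replicate 3. In the enterocyte list the acids stood apart, with medians of 0.62 for CA and -0.08 for CDCA, and the summed markers were 3298 to 5321 TPM with DMSO, 4971 to 7566 TPM with CA and 3443 to 5400 TPM with CDCA. The goblet and Paneth medians also differed in sign, at 0.18 and -0.24 for CA and -0.30 and 0.05 for CDCA. For stem cell, proliferation and tuft markers both medians were below 0. They were -0.43, -0.26 and -0.25 for CA and -0.11, -0.14 and -0.18 for CDCA. Krt20, a keratin of mature enterocytes, was at 34.6 to 55.9 TPM with DMSO and 49.9 to 109 TPM with the acids (log2 change 0.88, limma adjusted p = 0.0808). Olfm4, a stem cell marker, was at 161, 346 and 446 TPM with DMSO and 77.5 to 274 TPM with the acids, a log2 change of -1.10 with a 95% interval of -2.11 to -0.10 (adjusted p = 0.326). Lgr5 of stem cells, Mki67 of dividing cells, Alpi of enterocytes, Muc2 of goblet cells, Lyz1 of Paneth cells and Chga of enteroendocrine cells had pooled log2 changes of -0.32, -0.12, 0.25, 0.02, -0.38 and 0.09, none past the threshold. Those of Muc2 and Mki67 changed sign under some alternatives. The part of these cell type markers in the genes called above was not tested. Of 25 tested enteroendocrine markers Gcg was the 1 called (among all tested genes, 1.18%), and 7 lay above 0. Their median was -0.16 pooled (-0.21 to -0.086 with single libraries left out), 0.00094 for CA and -0.24 for CDCA.

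Lists of other pathways held few calls (among all tested genes, 1.18% were called). Among 7 tested genes of vitamin D and calcium absorption 2 were called, Cyp24a1 and Slc30a10, of 23 of fatty acid oxidation and ketogenesis 1, the acyl-CoA thioesterase Acot2 (0.43, limma adjusted p = 0.0364), and of 13 antimicrobial genes and Reg lectins 1, the nitric oxide synthase Nos2 (0.80, adjusted p = 0.0272). Nos2 was at 1.35 to 1.78 TPM with DMSO and 2.68 to 5.17 TPM with the acids, and its call was lost without CA replicate 3, DMSO replicate 1 or DMSO replicate 2 (adjusted p 0.0575 to 0.151). The Acot2 call was lost when any of 9 of the 12 libraries was left out (adjusted p 0.0541 to 0.2). None was called of 27 tested genes of cholesterol synthesis and uptake, 17 NRF2 antioxidant genes, 8 carboxylesterases, 14 Wnt targets, 11 interferon response genes, 13 tight junction genes and 13 mitochondrially encoded genes. Their pooled medians were 0.10, 0.09, 0.23, -0.22, 0.26, 0.03 and -0.20. With CA alone, in the same order, they were 0.19, 0.10, 0.46, -0.38, 0.19, 0.07 and -0.24. With CDCA alone they were -0.0047, 0.09, -0.02, -0.065, 0.48, -0.01 and -0.12. The cholesterol, carboxylesterase and tight junction medians thus had opposite signs with the acids. In the pooled estimates none of the 14 Wnt targets lay above 0, and all 11 interferon response genes and all 8 carboxylesterases did. With single libraries left out the pooled medians ran from 0.033 to 0.18 for cholesterol genes, 0.052 to 0.20 for NRF2 genes, 0.099 to 0.39 for carboxylesterases, -0.30 to -0.065 for Wnt targets, 0.10 to 0.47 for interferon genes, -0.0019 to 0.095 for tight junction genes and -0.28 to -0.10 for mitochondrially encoded genes.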

How the data were processed

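RNA of 12 organoid libraries, 3 for each of 4 treatments, was sequenced, and the authors deposited TPM values per gene, with no counts. Per the submitters' processing notes, Salmon 1.8.0 and build GRCm39 were used. Annotation and strand setting: not given in the sources used here. Of 32587 gene rows, 13548 were 0 in every library, and the 11952 that reached 1 TPM in 3 or more libraries entered the test. Among the tested rows, 116 were identical to another row. Because TPM keeps no depth, no counting error is given, and precision rests on the number of libraries.

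Values were compared as log2(TPM + 1) with limma 3.58.1 in R 4.3.3, with 4 group means over 12 libraries (8 residual degrees of freedom), contrasts, and moderation with a trend and robust settings. P-values were adjusted over all tested genes by Benjamini-Hochberg at 0.05. The script was tested on simulated data. Genes named are those without overlap and with a mean log2 value of at least 1 that changed most (12 in each direction, 10 in each direction among those that pooling alone called, 6 in each direction between the acids), up to 4 of each list, and a set of known markers. The members and lists were chosen with earlier results of these data known. Alternatives were another filter, scaling, pseudocount, model or moderation, a replicate block, and each library left out. Samples with the same replicate number did not all deviate together (correlations from -0.38 to 0.11 over the same-number pairs), and the main model did not pair samples by number. With 3 libraries a group these correlations cannot tell whether same-number samples share a culture, animal or batch.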

Additional observations from a re-analysis of the deposited data

Results flagged for a closer look

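In 67 named genes the 6 CA and CDCA libraries were examined for a library far from the others, and 4 had one, all in CDCA replicate 3. Such a rule marks about 1 in 20 groups by chance. Fabp6 was at 755 TPM there, with the next library at 306 TPM, and Fgf15 at 34.7 TPM, with the next at 14.1 TPM. Lmcd1 was at 2.41 TPM, with the next library at 3.55 TPM, and Nos2 at 5.17 TPM, with the next at 3.51 TPM.

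The acids differed from each other, by the limma test of the difference itself, in 4 genes. On the log2 scale CDCA minus CA was 2.71 for Cyp24a1, -0.93 for Gcg, -0.46 for Lgals2 and -1.63 for Zg16.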

How the results depend on the processing

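All 141 genes called with the pooled acids kept their sign in each of 22 alternatives, 21 passed without each of the 9 libraries in turn, and 18 passed in all 22. In 133 of the 141 the treated and solvent libraries did not overlap, so leaving libraries out could not turn the sign. The pooled count of 141 was 74 without the filter, 42 with 3 group means and 37 with 2 groups over the 9 libraries, 318 without both CDCA replicate 3 and DMSO replicate 1, and 26 to 204 with single libraries left out. The CA count of 69 was 26 without the filter, 29 after median-ratio scaling, 13 over the 9 libraries, 33 without trend and robust moderation, 35 without mitochondrial and rRNA rows, 966 without both libraries and 2 to 261 with single libraries left out. The CDCA count of 71 was 40 over the 9 libraries and 41 to 86 with single libraries left out. The 45 genes called by pooling alone became 24 without the filter, 9 over the 9 libraries, 8 without both libraries and 3 to 74 with single libraries left out. Between the acids the count of 4 was 7 without mitochondrial and rRNA rows, 440 without both libraries and 3 to 34 with single libraries left out, and between DCA and the primary acids 1892 to 4116. With the replicate block the counts were 91 pooled, 49 for CA, 45 for CDCA, 25 by pooling alone, 5 between the acids and 3112 between DCA and the primary acids. Sign changes were found in genes that did not pass: Zg16 (-0.11; range with single libraries left out -0.11 to 0.29) and Mki67 (0.023; -0.23 to 0.023) without DMSO replicate 3, and Muc2 (-0.084 to 0.11 with single libraries left out) after median-ratio scaling (-0.0041), without mitochondrial and rRNA rows (-0.038), without both libraries (-0.0042) and without CA replicate 1 (-0.019), CA replicate 3 (-0.00089), CDCA replicate 3 (-0.017) or DMSO replicate 2 (-0.084). The cause of these shifts was not tested. Depth is unknown, and 3 libraries a group limit what could be detected.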
